A study of Mus musculus with 74 samples.

Results

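The transcripts described here are 43 genes of the cell cycle, 18 that act in S phase, when DNA is copied, and 25 that act in mitosis, when the copied chromosomes are separated. They were picked by gene name from a list of known cell cycle genes, out of 22079 gene names that had group means in at least 1 of the 5 tables used. The series holds RNA sequencing of 74 samples of mouse mammary primary tumors (PT) and lung metastases (Lung met), taken from female mice in autochthonous models, and each comparison asked how Lung met differed from PT within a model. The FVB Her2 group carries the neu (Her2) transgene driven by the mouse mammary tumor virus promoter on the FVB/N strain and has 6 PT and 6 Lung met samples. The FVB C3Tag group carries simian virus 40 large T antigen under the C3(1) promoter on the same strain and has 7 and 7 samples. The PyMT-F1 groups share a polyoma middle T transgene, also driven by the mammary tumor virus promoter, and come from FVB PyMT males crossed to BALB, SEA/GnJ (SEAGN) or AKR/J females, with 6 samples per tissue in each cross. A further model, MMTV-Myc, was not analysed here because its table holds only the p-values of the study's own comparison. The study's methods state that all tumors of an animal were sampled at random and the samples pooled, and that metastatic nodules were isolated, with no sorting of cell types described. PTs of Her2 and C3Tag mice were, by the methods, removed surgically from animals with a single lesion and the mice were then aged further, whereas PyMT tissues were both taken at the endpoint. Ages are not in the labels.

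Each table gives, for every gene, the least-squares mean of normalized counts over the PT samples and over the Lung met samples, with no value for a single sample. Every comparison below is therefore the ratio of 2 group means with no replicate check. It has no standard deviation, interval or test, and the sequencing depth behind it is unknown. Ratios are given as log2 of Lung met over PT, so that a negative value is lower in Lung met. A gene was counted as past the fold when its means differed by 1.5-fold or more. The 5 tables were normalized separately, so that means of a gene in different tables are not on 1 scale. The strain of the PyMT-F1 tables rests on their names. For 23 of the 36 PyMT-F1 samples the genotype label names another strain than the sample title. The table deposited under the AKR name holds other group means than those listed for the AKR cross in the study's supplement, so it is called the AKR-named table and its strain is not settled.

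A dividing cell first licenses its replication origins, loads the MCM helicase and supplies nucleotides for DNA synthesis, under control of E2F factors and cyclin E. It then accumulates cyclins A and B, activates CDK1 and builds a spindle that the checkpoint kinases watch until the chromosomes are aligned. Transcripts of both phases rise and fall with the share of cells that are dividing, and Mki67, which encodes the Ki-67 protein, is a standard proliferation marker of mammary tumors. Large T antigen binds the retinoblastoma protein, which otherwise holds E2F in check. In bulk tissue a smaller share of dividing cells and less RNA per cell cannot be told apart.

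Promoters of these genes are known to carry E2F sites in S phase genes and, in mitotic genes, a cell cycle homology region (CHR) near CCAAT boxes. Windows of 250 bases before to 50 bases after the start site were at hand for 35 of the 43 genes in RefSeq's GRCm38.p6 annotation. Aurkb, Tpx2, Mcm4, Kif20a, Foxm1, Gins2, Ccne2 and Ccna2 had no window. The windows were searched on both strands for TTTCGCGC, TTTGGCGC or TTTCCCGC (E2F), for TTTGAA or TTCGAA (CHR) and for CCAAT. A gene counted as matched when any of its windows held the letters. An E2F match was present in 6 of 15 S phase genes (40.0%), in 1 of 20 mitotic genes (5.00%, Cdk1) and in 2.12% of 27025 genes with a window. CHR matches were present in 15 of 20 mitotic genes (75%), 4 of 15 S phase genes (26.7%) and 21.7% of all genes. Matches to CHR and CCAAT in the same gene were found in 75% of mitotic, 26.7% of S phase and 8.61% of all genes. A match is a description of letters and was not tested as a site. The 6 stretches shown here lie before the start site, on the strand of the gene, and stand for both classes. In Mcm5 and Mcm6 the E2F match overlaps a further one on the other strand. Capitals mark 1 E2F match each in Mcm5 (chr8:75109329-75109390), Mcm6 (chr1:128359781-128359842) and Cdc6 (chr11:98907986-98908047). They mark 1 CHR match each in Cdk1 (chr10:69352951-69353010), Mki67 (chr7:135716463-135716522) and Top2a (chr11:99024297-99024356). The Mki67 and Top2a stretches each hold a further CHR match in lower case. Further matches of the same kind lie outside the stretches shown in Mcm6, Cdk1 and Top2a. Mcm5 and Cdc6 are on the plus strand and the other 4 on the minus strand.
Mcm5: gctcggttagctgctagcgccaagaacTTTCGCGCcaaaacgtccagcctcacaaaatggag
Mcm6: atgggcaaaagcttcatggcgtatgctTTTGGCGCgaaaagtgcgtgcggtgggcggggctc
Cdc6: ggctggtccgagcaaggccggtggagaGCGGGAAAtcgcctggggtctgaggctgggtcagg
Cdk1: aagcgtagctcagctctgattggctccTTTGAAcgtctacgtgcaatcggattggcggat
Mki67: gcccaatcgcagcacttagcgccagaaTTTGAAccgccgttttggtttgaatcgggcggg
Top2a: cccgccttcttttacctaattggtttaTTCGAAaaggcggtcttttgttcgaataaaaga
The Cdc6 letters are an E2F match read on the other strand, and the Cdk1 and Mki67 stretches both hold TTTGAA.

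Cell cycle transcripts were lower in Lung met than in PT in both FVB driver models and higher in Lung met in the BALB and SEAGN crosses. In FVB Her2, 41 of 43 members had a lower Lung met mean, against 50.3% of all 18208 genes, with a median log2 ratio of -0.25. In FVB C3Tag it was also 41 of 43, against 48.8% of 19320 genes, with a median of -0.56. In PyMT-F1 BALB, 35 of 42 members had a higher Lung met mean, against 55.3% of 17270 genes, with a median of 0.11. In PyMT-F1 SEAGN, 40 of 42 were higher, against 52.6% of 17351 genes, with a median of 0.23. The AKR-named table fell between them, with 27 of 43 members lower against 49.2% of 17829 genes and a median of -0.06. The median over all genes was within 0.03 of 0 in every table. There were 39 members lower in both driver tables and 34 higher in both BALB and SEAGN, and 30 did both. The share of all genes that did so was not taken, so these overlaps have no background beside them. Mcm7 was lower in all 5 tables, at 1998 in PT and 1643 in Lung met in FVB Her2 (-0.28), 5647 and 4193 in C3Tag (-0.43), 378 and 375 in BALB (-0.01), 377 and 355 in SEAGN (-0.09) and 2331 and 2104 in the AKR-named table (-0.15). Tyms, which makes thymidylate, was lower in FVB Her2, C3Tag and the AKR-named table and was not analysed here in BALB and SEAGN. No member was higher in every table.

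Most of these differences were small. In FVB Her2 no member was past the fold, while 5.42% of all genes were past it on the higher side and 3.62% on the lower side. In FVB C3Tag 17 of 43 members were past it on the lower side, against 5.61% of all genes, and none on the higher side, where 14% of all genes lay. In PyMT-F1 BALB 1 of 42 was past it on the higher side, against 6.2% of all genes, and none on the lower side, against 6.76%. In PyMT-F1 SEAGN 2 of 42 were past it on the higher side, near the 7.11% of all genes, and none on the lower side, against 8.32%. In the AKR-named table no member was past it, against 13.6% of all genes higher and 6.32% lower. C3Tag was the table in which members past the fold, on the lower side, were more frequent than genes at large.

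**Figure D1:**
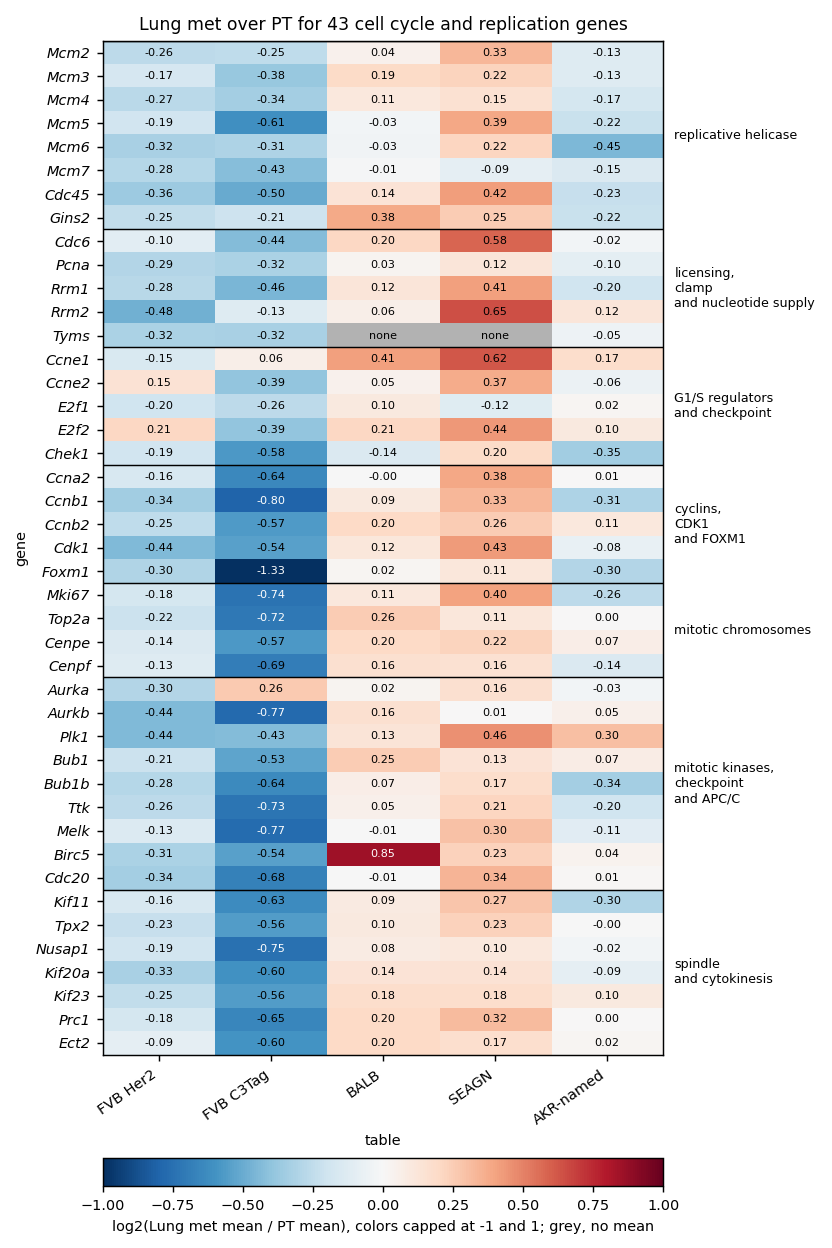
Log2 ratio of the Lung met mean over the PT mean for each of the 43 genes (rows, grouped by role) in the 5 tables (columns), blue where Lung met was lower and red where it was higher. The 2 driver columns are blue apart from Ccne2 and E2f2 in FVB Her2 and Ccne1 and Aurka in FVB C3Tag, BALB and SEAGN are mostly red, and Tyms has no value in these last 2.

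The replicative helicase was lower in Lung met in both driver models. MCM proteins form the ring that unwinds DNA, and Cdc45 and the GINS complex complete it. All 8 helicase genes were lower in FVB Her2, from -0.36 (Cdc45) to -0.17 (Mcm3), and in FVB C3Tag, from -0.61 (Mcm5) to -0.21 (Gins2). Mcm5 was the only S phase gene past the fold in C3Tag, with a PT mean of 4393 and a Lung met mean of 2871. Mcm6 had means of 7361 and 5937 there, and 1745 and 1396 in FVB Her2. In SEAGN 7 of the 8 were higher, with Cdc45 at 48.1 in PT and 64.1 in Lung met (0.42) and Mcm5 at 271 and 354 (0.39). In BALB the helicase genes had a median of 0.08. They lay between -0.03 (Mcm6) and 0.19 (Mcm3), apart from Gins2, at 144 in PT and 187 in Lung met (0.38). The AKR-named table had all 8 lower, from -0.45 for Mcm6 (2526 in PT, 1849 in Lung met) to -0.13.

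Genes for nucleotide supply and the sliding clamp followed the same order of tables. Rrm1 and Rrm2 encode the subunits of ribonucleotide reductase, which makes deoxynucleotides. Rrm2 had the lowest ratio of all members in FVB Her2, with 1729 in PT and 1237 in Lung met (-0.48), and the highest in SEAGN, with 317 in PT and 496 in Lung met (0.65). In C3Tag it was among the least lowered, at 1945 and 1779 (-0.13). Rrm1 was -0.28 in FVB Her2, -0.46 in C3Tag and 0.41 in SEAGN. Pcna, the clamp that holds the polymerase on DNA, was -0.29 and -0.32 in the driver models and 0.12 in SEAGN. Cdc6, which loads the helicase, lay just below the fold in SEAGN, with 82.4 in PT and 124 in Lung met (0.58). Tyms was at 1115 in PT and 893 in Lung met in FVB Her2, at 2293 and 1833 in C3Tag and at 1472 and 1418 in the AKR-named table.

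The regulators that start S phase held several exceptions to the direction of their table. Ccne1, a cyclin E gene, was past the fold in SEAGN, with 41.2 in PT and 63.5 in Lung met (0.62). It was also higher in BALB, at 54.6 and 72.5 (0.41), and was 1 of 2 members with a higher Lung met mean in C3Tag, at 257 and 267 (0.06). Ccne2 and E2f2 were the only members higher in FVB Her2 Lung met. Ccne2 had means of 322 and 356 there, and E2f2, an activating E2F, 195 and 225. Both were lower in C3Tag, each at -0.39. E2f1 was -0.20 in FVB Her2, -0.26 in C3Tag and -0.12 in SEAGN (77.4 in PT, 71.1 in Lung met), where it and Mcm7 were the only members below 0. Chek1, the kinase that answers stalled replication, was lower in 4 of the 5 tables, from -0.58 in C3Tag, just inside the fold, to -0.14 in BALB, and 0.20 in SEAGN.

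In mitosis the C3Tag table held the largest differences. All 25 mitotic genes were lower in FVB Her2 Lung met, between -0.44 and -0.09, and all 25 were higher in SEAGN, between 0.01 and 0.46. In C3Tag 24 of 25 were lower, against 48.8% of all genes, and 16 were past the fold on that side, against 5.61%. Ccnb1, cyclin B1, had means of 2279 in PT and 1311 in Lung met there (-0.80), and cyclin A2, Ccna2, 6423 and 4116 (-0.64). Cdk1, the kinase these cyclins switch on, was at 2691 and 1845 (-0.54), and at 1886 and 1387 in FVB Her2 (-0.44). In SEAGN Cdk1 was at 215 and 289 (0.43). Ccnb2 was -0.25 in FVB Her2, -0.57 in C3Tag and 0.26 in SEAGN.

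Mki67 had the highest mean of all members in every table, on means not corrected for gene length. Mki67 was at 28933 in PT and 17359 in Lung met in C3Tag (-0.74), at 9045 and 8004 in FVB Her2 (-0.18) and at 10712 and 8942 in the AKR-named table (-0.26). It was higher in Lung met in SEAGN, at 3388 and 4481 (0.40), and in BALB, at 4407 and 4750 (0.11). Top2a, topoisomerase II alpha, which untangles the copied strands, was at 16561 and 10086 in C3Tag (-0.72), and was level in the AKR-named table, at 6868 and 6880. Cenpf and Cenpe sit at the kinetochore. In C3Tag Cenpf was at 10534 and 6533 (-0.69) and Cenpe at 5079 and 3415 (-0.57), and both were between -0.14 and 0.22 in all other tables.

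Mitotic kinases and the spindle checkpoint were lowered in C3Tag with exceptions. Aurkb, the kinase of the chromosomal passenger complex, had a Lung met mean of 851, at a ratio of 0.585 to PT (-0.77). Melk was at 1447 and 848 (-0.77), Ttk at 939 and 566 (-0.73), Cdc20, which activates the anaphase-promoting complex, at 2768 and 1728 (-0.68) and Bub1b at 2573 and 1657 (-0.64). Bub1, at -0.53, and Plk1, at -0.43, did not reach the fold. Aurka, the kinase of the spindle poles, was instead higher in C3Tag Lung met, at 1005 and 1207 (0.26), whereas it was at 778 and 634 in FVB Her2 (-0.30). Plk1, which drives entry into mitosis, was among the lowest in FVB Her2, at 559 and 411 (-0.44), with Aurkb at 543 and 399.8 (-0.44). Plk1 was also the highest member in the AKR-named table, at 712 and 877 (0.30), followed by Ccne1 at 303 and 342 (0.17) and Rrm2 at 1554 and 1691 (0.12). The lowest there after Mcm6 were Chek1, at 578 and 455 (-0.35), and Bub1b, at 1545 and 1218 (-0.34). Birc5, survivin, is another subunit of the passenger complex. It was the 1 member past the fold in BALB, at 261 in PT and 469 in Lung met, a ratio of 1.8 (0.85). Aurkb was the lowest mitotic gene in SEAGN, at 153 in both tissues (0.01). In the other tables Birc5 lay between -0.54 and 0.23. After it the highest in BALB were Ccne1 and Gins2, and the lowest were Chek1, at 91.0 and 82.3 (-0.14), Mcm6, at 351 and 343 (-0.03), and Mcm5, at 322 and 317 (-0.03).

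Spindle and cytokinesis genes lay close together in 4 of the 5 tables. The motor Kif11, the spindle factors Tpx2 and Nusap1, and Kif20a, Kif23, Prc1 and Ect2, which act when the cell is cut in 2, lay between -0.75 and -0.56 in C3Tag. Nusap1 was the lowest, at 2483 in PT and 1480 in Lung met, and Prc1 was at 5002 and 3183 (-0.65), Kif11 at 4408 and 2845 (-0.63), Kif20a at 2902 and 1910 (-0.60) and Ect2 at 3131 and 2065 (-0.60). Tpx2 and Kif23, both at -0.56, were just inside the fold. The same 7 genes lay between -0.33 and -0.09 in FVB Her2, where Ect2 was the closest to 0 at 788 and 739, 0.08 and 0.20 in BALB and 0.10 and 0.32 in SEAGN. In the AKR-named table they were spread more widely, from -0.30 (Kif11) to 0.10 (Kif23), with 3 higher and 4 lower.

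Foxm1, the transcription factor of many mitotic genes, was the member furthest from 0 in any table. In C3Tag its mean was 7355 in PT and 2926 in Lung met, which is 2.51-fold lower (-1.33) and the only member past 2-fold. It was at 641 and 520.2 in FVB Her2 (-0.30), 754 and 615 in the AKR-named table (-0.30), 348 and 353 in BALB (0.02) and 274 and 296 in SEAGN (0.11). Foxm1 shares 241 of its 5754 exon bases with other protein-coding genes on the same strand, and reads from these bases cannot be assigned to it with certainty. In all, 10 members share exon bases with another protein-coding gene, and of these only Foxm1 shares them on its own strand. The most are the 2758 of 4097 bases that Gins2 shares with Gse1. Without these 10 members the list is shorter, and 11 members stayed past the fold in C3Tag in place of 17. The C3Tag median was then -0.54 in place of -0.56.

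Around Foxm1, Aurka and Birc5, which departed most from the other members of their table, most neighboring genes on the chromosome departed in the same direction. This was looked at after the values were seen, for protein-coding genes with a mean of at least 10 within 500.0 kb on either side, with positions from GENCODE M21 (GRCm38). Foxm1 lies at chr6:128362967-128376146. In C3Tag 9 of its 12 neighbors were lower in Lung met and 6 were past the fold on that side, among them Rhno1, at 2391 in PT and 1104 in Lung met (-1.12), Itfg2, at 1460 and 678 (-1.11), and Tulp3, at 2191 and 1164 (-0.91). The other 3, Klrb1c (0.91), Klrb1b (1.94) and Tspan11 (3.82), were past the fold on the higher side. The median over the 12 was -0.65, and over its 9 neighbors in FVB Her2 it was 0.05. Aurka lies at chr2:172356190-172370535. All 5 of its neighbors in C3Tag were past the fold on the higher side, with a median of 0.93, for example Cstf1, at 705 and 1341 (0.93), and Rtf2, at 1003 and 1717 (0.77). In FVB Her2 4 of 5 neighbors were below 0 and the median over the 5 was -0.07. The exception was Cass4, at 1.60 in C3Tag, 4.75 in FVB Her2 and 2.01 in the AKR-named table. Birc5 lies at chr11:117849251-117855743. In BALB 13 of its 14 neighbors were higher in Lung met and 9 were past the fold, with a median of 0.63, while the median over 14 neighbors in SEAGN was -0.03. Tk1, thymidine kinase, is 31.7 kb from Birc5 and was at 389 and 738 (0.92). Socs3 was at 183 and 306 (0.74) and Pgs1 at 332 and 590 (0.83). Both were also higher in the other tables, Socs3 from 0.30 (SEAGN) to 0.99 (AKR-named) and Pgs1 from 0.20 to 0.44. Of all genes with at least 5 neighbors, 40 of 11464 in C3Tag had a neighbor median 1.5-fold or more lower and 228 one that much higher, and 85 of 9257 in BALB had one that much higher. Not every member went with its neighbors. Pcna was lower in C3Tag although 5 of its 8 neighbors were past the fold on the higher side (median 0.83), and Rrm2, past the fold in SEAGN, had 7 neighbors with a median of 0.06. Over the members with 5 or more neighbors, the rank correlation of member and neighbor median was 0.06 in C3Tag (n = 35) and 0.38 in BALB (n = 30). Genes are not independent replicates here, and what the neighbors share was not tested.

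**Figure D2:**
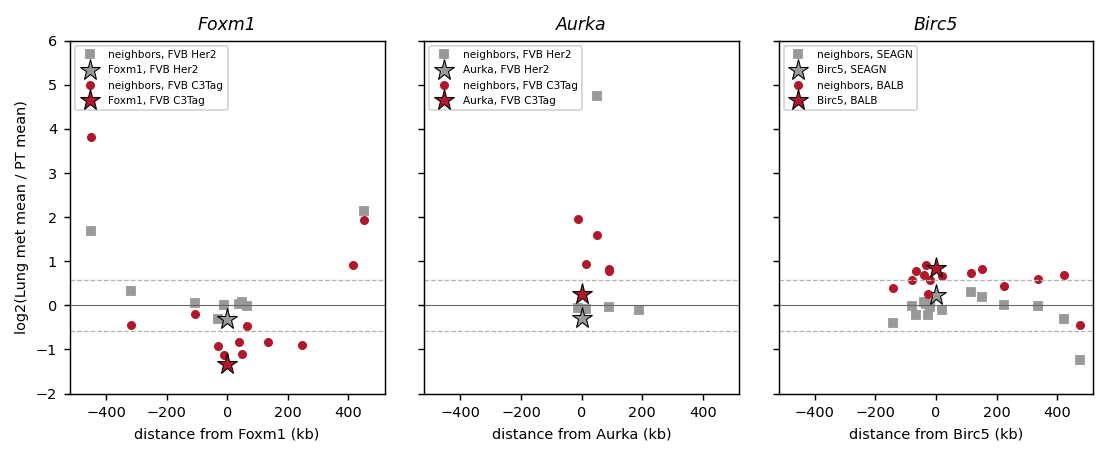
Log2 ratio of the Lung met mean over the PT mean (vertical axis) against distance in kb (horizontal axis) for protein-coding genes around Foxm1, Aurka and Birc5, whose own values are the stars. Red points are the table in which the gene stood out (C3Tag, C3Tag and BALB) and grey squares a comparison table (FVB Her2, FVB Her2 and SEAGN), with dashed lines at 1.5-fold. Red neighbors lie mostly below 0 around Foxm1 and above 0 around Aurka and Birc5, whereas most grey squares lie near 0.

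Set against each other, S phase and mitotic genes differed most in C3Tag. The median log2 ratio there was -0.36 over 18 S phase genes and -0.64 over 25 mitotic genes, a difference of 0.27. On the lower side 1 of 18 S phase genes was past the fold, near the 5.61% of all genes. Of the mitotic genes 16 of 25 were past it. In FVB Her2 both medians were -0.25. In BALB they were 0.10 and 0.12, in SEAGN 0.33 and 0.22, and in the AKR-named table -0.13 and -0.00. Between the driver models, 23 of 25 mitotic and 13 of 18 S phase genes had a lower ratio in C3Tag than in FVB Her2. The 2 crosses also differed, with 33 of 42 members at a higher ratio in SEAGN than in BALB. No share over all genes was taken for these counts between tables. None of these differences could be tested without values per sample.

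**Figure D3:**
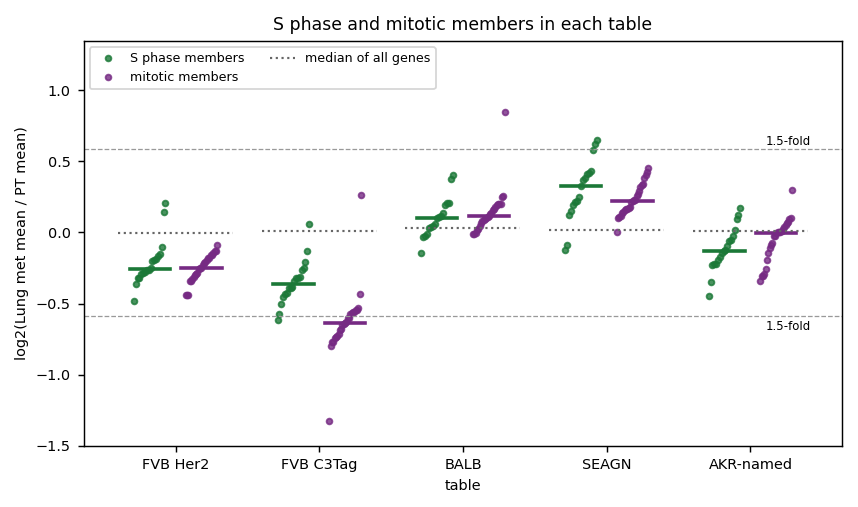
Log2 ratio of the Lung met mean over the PT mean for each S phase (green) and mitotic (purple) gene in the 5 tables, with thick bars at the medians, dotted lines at the median of all genes and dashed lines at 1.5-fold. Mitotic points lie lower than S phase points in C3Tag, with Foxm1 lowest at -1.33 and Aurka highest at 0.26, and Birc5 stands alone at 0.85 in BALB.

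Other genes of the same processes, from lists that hold none of the 43, mostly followed the members. Of 34 further mitotic genes, 33 were lower in FVB Her2 (median -0.25), 34 in C3Tag (-0.60) and 24 in the AKR-named table (-0.07), while 33 were higher in BALB (0.11) and 33 in SEAGN (0.26). In C3Tag 20 of the 34 were past the fold on the lower side, against 5.61% of all genes. They were led by Cenpk, a kinetochore protein, at 575 in PT and 327 in Lung met (-0.81), and Aspm, a spindle pole protein, at 5753 and 3380 (-0.77). Cenpk was past the fold in SEAGN on the higher side, at low means of 14.5 and 22.4. Of 30 further replication genes, 28 were lower in FVB Her2 (-0.24), 30 in C3Tag (-0.37) and 21 in the AKR-named table (-0.12), and 27 were higher in SEAGN (0.13). In BALB 18 were higher (0.05), which is near the 55.3% of all genes. In C3Tag 2 of the 30 were past the fold on the lower side, near the 5.61% of all genes. These were Orc1, of the origin recognition complex, at 559 and 354 (-0.66), and the checkpoint adaptor Clspn, at 2039 and 1309 (-0.64). Past the fold elsewhere were Tk1 in BALB (0.92), Gmnn, which blocks relicensing, in SEAGN (42.5 and 67.1, 0.66) and the kinase gene Cdc7 in the AKR-named table (728 and 481, -0.60). None of 14 E2F and DREAM complex genes was past the fold in any table. Their median was -0.25 in C3Tag and between -0.09 and 0.15 elsewhere.

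Of 9 genes that act in G1, 4 in C3Tag were past the fold on the higher side, against 14% of all genes, and none on the lower side, against 5.61%. D-type cyclins and their kinases push cells out of G1, and the Cdkn genes hold them back. In C3Tag, where the members were lowest, Ccnd1 was at 2543 in PT and 8743 in Lung met (1.78), Ccnd2 at 686 and 1468 (1.10), Cdk6 at 1734 and 3231 (0.90) and Mycn at 80.8 and 164 (1.02). Cdkn1b, the inhibitor p27, was at 8163 and 4136 (-0.98), whereas Cdkn1c was at 178 and 441 (1.31). In FVB Her2 Ccnd1 was lower, at 14666 and 10234 (-0.52), without reaching the fold, and in BALB and SEAGN it was past it on the higher side (0.62 and 0.60). Ccnd2 was at 314 and 1605 in the AKR-named table (2.35), and Mycn at low means of 4.04 and 12.1 (1.58).

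Of 12 inhibitor genes, 2 were past the fold on the lower side in FVB Her2 and none on the higher side, whereas 4 in SEAGN, 3 in C3Tag and in the AKR-named table and 1 in BALB were past it on the higher side. For all genes these shares were 3.62% lower and 5.42% higher in FVB Her2, and 7.11%, 14%, 13.6% and 6.2% higher in SEAGN, C3Tag, the AKR-named table and BALB, so that the single gene in BALB is near the background. Counts of 2 or 3 out of 12 are also small to set against such shares. On the lower side 1 gene in C3Tag and 2 in the AKR-named table were past the fold as well, against 5.61% and 6.32% of all genes. Cdkn2a, which encodes p16 and Arf, was at 71.0 in PT and 27.5 in Lung met in FVB Her2 (-1.37), 42.4 and 90.3 in SEAGN (1.09) and 199 and 1001 in the AKR-named table (2.33). Its neighbor Cdkn2b was at 39.0 and 94.0 in SEAGN (1.27) and 243 and 711 in the AKR-named table (1.55). Cdkn1a, the p53 target p21, was at 1010 and 564 in FVB Her2 (-0.84) and was past the fold on the higher side in the other 4 tables, at 1860 and 2834 in C3Tag (0.61), 976 and 1590 in BALB (0.70), 704 and 1666 in SEAGN (1.24) and 2091 and 6961 in the AKR-named table (1.74). Btg2, an antiproliferative gene, was at 1176 and 1959 in C3Tag (0.74) and at 458 and 988 in SEAGN (1.11). In the AKR-named table Rb1, at 2821 and 1641 (-0.78), and Cdkn2c, at 708 and 438 (-0.69), were past the fold on the lower side.

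**Figure D4:**
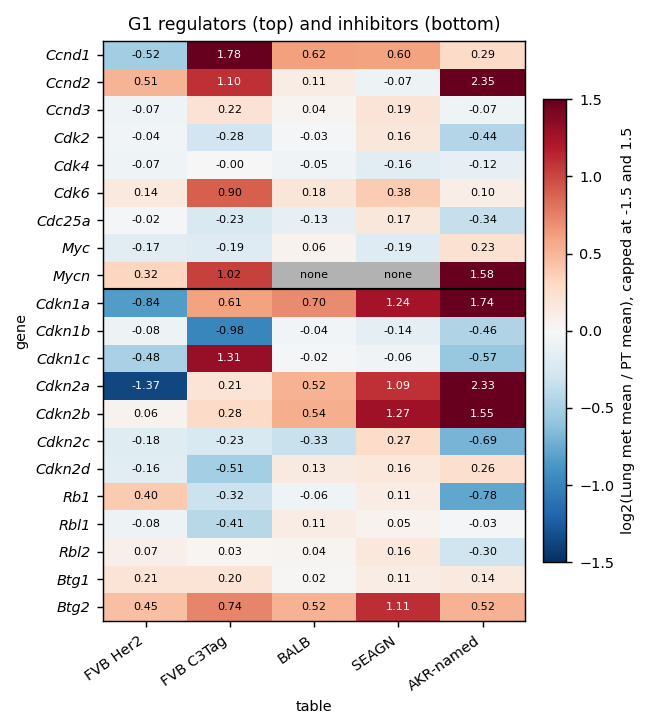
Log2 ratio of the Lung met mean over the PT mean for 9 genes that act in G1 (above the line) and 12 inhibitor genes (below it) in the 5 tables, red where Lung met was higher. Cdkn1a and Cdkn2a are blue in FVB Her2 (-0.84 and -1.37) and red in SEAGN (1.24 and 1.09), and Ccnd1 is darkest red in C3Tag (1.78).

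In PTs these transcripts stood at very different places among all genes. The place was taken as the percent of genes of the table with a lower PT mean, with no correction for gene length. The median over the members was 68.9 in FVB Her2, 89.8 in C3Tag, 66.4 in BALB, 63.7 in SEAGN and 75.5 in the AKR-named table. All 43 members stood higher in C3Tag than in FVB Her2, against 57.4% of 17151 genes in both tables. The median gain was 20.4 percentage points, against 1.75 over all shared genes. Foxm1 gained 41.0 points, from 57.1 to 98.1, Kif23 35.1, from 56.2 to 91.3, and E2f1 33.4, from 48.9 to 82.3. Mki67, at 97.9 and 99.8, and Pcna, at 93.7 and 96.5, were near the top in both. In Lung met all 43 also stood higher in C3Tag, against 55.95% of the 17151 shared genes. The median gain there was 17.1 points, against 1.39 over all shared genes. Model and library series cannot be told apart in this comparison. Ccne1 was the lowest member in FVB Her2, C3Tag, SEAGN and the AKR-named table (30.7 to 44.7), and Cdc45 in BALB (33.1). The order of members by PT mean was alike between tables, with rank correlations over members from 0.78 (C3Tag and AKR-named) to 0.98 (BALB and SEAGN). Per kb of exon, Pcna had the highest PT level of the members in FVB Her2, at 1803, before Mki67, at 899. In C3Tag Mki67 was at 2876 per kb and Pcna at 2192.

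**Figure D5:**
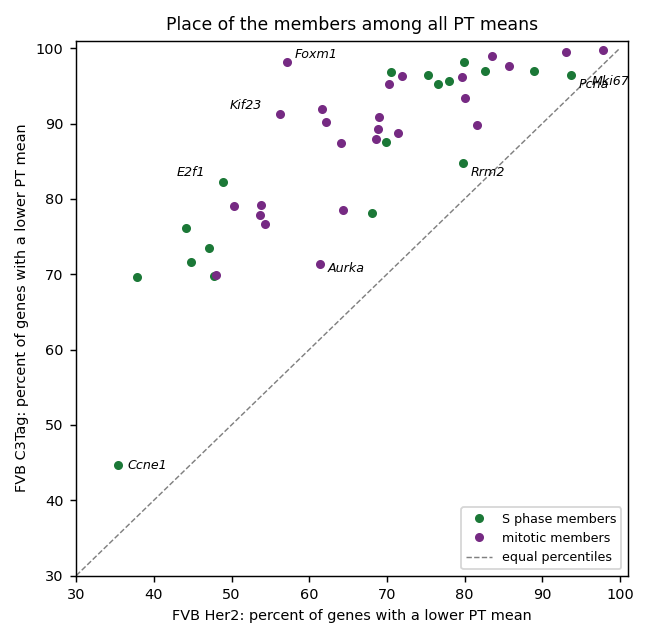
Percent of genes with a lower PT mean in FVB Her2 (horizontal axis) and in FVB C3Tag (vertical axis) for each S phase (green) and mitotic (purple) member. All 43 points lie above the dashed line of equal percentiles, Foxm1 furthest from it (57.1 and 98.1) and Mki67 closest (97.9 and 99.8).

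The C3Tag table also differed in the makeup of its counts. Its PT means summed to 40891800 and its Lung met means to 23448000, whereas the summed means of FVB Her2 were 29063600 and 30062900. There were 31 genes at least 32-fold lower in C3Tag Lung met, which made up 46.4% of the summed PT means, against at most 6 such genes in any other table, and no member was among them. The snRNA gene Gm22614 alone had means of 15645800 and 45.4. Among these 31 were 6 core histone genes, whose messages are made in S phase and carry no poly(A) tail. H3c13 was at 280959 in PT and 208 in Lung met, and H2ac7 at 123000 and 175. Of 49 clustered core histone genes listed in C3Tag 48 were lower, against 48.8% of all genes, with a median of -0.58. Past the fold on the lower side were 23 of the 49, against 5.61% of all genes. In FVB Her2 it was 2 of 24 (median 0.05), in BALB none of 47 (-0.06) and in SEAGN none of 46 (0.21). For all genes these lower-side shares were 3.62%, 6.76% and 8.32%. Among 24 of the AKR-named table, 11 were past the fold on the higher side, against 13.6% of all genes, and 3 on the lower side, against 6.32% (median 0.53). PT means of the 11 ran from 3.21 (H4c1) to 181 (H2ac19), so that some of these ratios rest on low means. These histone genes were chosen after their values were seen. Their part in the ratios of the members was not tested.

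Lung and stromal cell markers differed between PT and Lung met in every table. Of the 10 lung epithelium markers 5 or 6 had means, and 5 of these in FVB Her2, BALB and SEAGN and 6 in C3Tag and the AKR-named table were past the fold on the higher side. Their summed means went from 476 to 15724 in C3Tag, from 1399 to 6048 in FVB Her2, from 65.9 to 939 in BALB, from 80 to 1785 in SEAGN and from 797 to 25473 in the AKR-named table. Sftpc, Sftpb, Sftpa1 and Scgb1a1 were not analysed here. All 8 endothelium markers were higher in all 5 tables, with medians from 0.71 (BALB) to 1.83 (AKR-named). Most fibroblast markers were lower, with 7 of 8 past the fold on that side in FVB Her2, BALB, SEAGN and the AKR-named table. Medians there were -1.49, -1.75, -2.37 and -1.41, in that order. On the lower side 4 of 8 were past the fold in C3Tag (median -0.34). In C3Tag 3 of the 8 were higher, 2 of them past the fold, and Pdgfra was past it on the higher side in the AKR-named table (0.94). Mammary luminal markers, a list that includes Krt8, Krt18 and Epcam, were present in both tissues, with medians between -0.07 and 0.21. Single genes of the list differed more. In C3Tag 3 of 7 were past the fold on the lower side and 1 on the higher side, against 5.61% and 14% of all genes. In FVB Her2 and BALB 1 of 7 was past it on the higher side. On the lower side it was 1 of 7 in SEAGN and 1 of 6 in the AKR-named table. All erythroid markers with means were past the fold on the higher side in FVB Her2, C3Tag and the AKR-named table. In BALB and in SEAGN only 1 of the 6 had means, at -0.49 and 0.10. The T cell list had a median of 1.19 in the AKR-named table and between -0.44 and 0.25 elsewhere, macrophage medians lay between -0.40 and 0.39, and the B cell and adipocyte lists had at most 2 genes with means. The part of cell makeup in the members' ratios was not tested.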

How the data were processed

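RNA of PT and Lung met was sequenced, and the authors deposited 1 table per comparison. Labels name a stranded total RNA kit with ribosomal RNA removal, STAR 2.7.8a and mm39, whereas the study's methods name mRNA libraries, mm9 and mm10, with counting in Partek Flow. The authors compared tissues with DESeq2 in PyMT-F1 and by Gene Specific Analysis in the other models. The BALB and SEAGN tables use BALB/cJ gene identifiers. The deposited values used here are the authors' group means, a signal in units of normalized counts whose normalization and scale of averaging are not named. The AKR-named table holds values of the same kind. Columns with the authors' ratios, fold changes, p-values and false discovery rates hold their own comparisons and were not used, which leaves out MMTV-Myc. Rows without a mean were dropped (0 in FVB Her2, 1 in C3Tag, 93 in BALB, 53 in SEAGN and 116 in the AKR-named table). Samples were grouped by their titles.

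From these means the log2 of Lung met over PT was computed with Python 3 packages pandas and numpy, without a pseudocount or a filter on low values, and no test was run. The share of all genes past 1.5-fold in each table was given beside the counts past 1.5-fold over the full member list. No such share was taken for counts of ratios that join or compare tables. Percentiles were taken within a table. Exon lengths came from GENCODE M21 and were found for at least 82.5% of the genes of each table. Gene symbols were matched directly, or through 1 RefSeq synonym (Sgo1 as Sgol1). Every member was accounted for, and those named with both means were the members past 1.5-fold in any table, the 3 highest and 3 lowest of each table and those on 1 side in all tables. Inhibitors and G1 genes were named where past 1.5-fold in any table, and of the other lists the 2 highest and 2 lowest of a table where past it. Members, lists and rules were chosen with earlier results of these data known. The neighbor and histone comparisons were added after the values were seen. The arithmetic of the summaries was checked on simulated data with known shifts, which says nothing about the spread between samples.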

Additional observations from a re-analysis of the deposited data

How the results depend on the processing

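No paired analysis was possible because the tables hold group means and no value per sample, and for the same reason no replicate could be left out. Centring on the median of genes with a mean of at least 10, a pseudocount of 1, a minimum mean of 10, and means in place of medians moved no median ratio by more than 0.1, no median percentile by more than 5 points and no count by more than 1.5 times, nor did leaving out 5 regulators from the S phase list. That limit of 0.1 is large beside the smaller medians. Centring took the BALB member median from 0.11 to 0.07. With means in place of medians, the S phase minus mitotic difference went from -0.13 to -0.06 in the AKR-named table. In FVB Her2 the same change took it from -0.005 to 0.04. The counts depended on the fold. At a log2 difference of 0.322 or more in place of 1.5-fold, 8 members were lower in FVB Her2, 35 in C3Tag and 3 in the AKR-named table, and 3 were higher in BALB and 15 in SEAGN. At 2-fold, 1 was lower in C3Tag, and none was higher in BALB or SEAGN (0 and 0). Without the 10 members that share exon bases, 11 of those left were 1.5-fold or more lower in C3Tag, with a median of -0.54. The median PT percentile was 60.8 in BALB per kb of exon, and among protein-coding genes alone, an alternative added after seeing the data, it was 61.4 in FVB Her2, 57.6 in BALB and 54.4 in SEAGN. The exon-sharing alternative was also added then.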
